A study of Mus musculus with 24 samples.

Results

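The 10 genes described here carry antigen presentation by major histocompatibility complex (MHC) class II: the regulator Ciita, the class II chains H2-Aa, H2-Ab1 and H2-Eb1 with their chaperone Cd74, the peptide editors H2-DMa, H2-DMb1 and H2-DMb2, and the inhibitors H2-Oa and H2-Ob. They were taken by symbol, 10 of the 55376 genes in the count table. They were selected on measured values, since they were strongly higher in young TTPΔARE MPP3 cells when the 6 groups of the study were compared. Their order over the groups, their ratios between cell types and their difference in MPP3 cells are therefore described here and not tested. The series held mRNA-seq of bone marrow cells from 24 libraries in 6 groups. Hematopoietic stem cells (HSCs, sorted as Lineage-Sca1+cKit+ cells that were CD34-Flk2-CD150+) came from young WT mice (Y-WT, 4 libraries), young TTPΔARE mice (Y-TTPΔARE, 4), middle-aged WT mice (M-WT, 5) and middle-aged TTPΔARE mice (M-TTPΔARE, 3). MPP3 cells, a multipotent progenitor with a myeloid bias, came from young WT (4 libraries) and young TTPΔARE (4) mice. All mice were untreated males, and TTPΔARE mice were homozygous for an allele of Zfp36, present in every cell of the body, that lacks an AU-rich element of the mRNA of tristetraprolin (TTP), while WT mice were littermates. Zfp36 encodes TTP, which binds AU-rich elements in mRNAs and promotes their decay. The genotype label is spelled TPPdeltaARE, and the source label of the MPP3 libraries names stem cells where the titles and cell type labels give MPP3. Whether a library came from 1 mouse or from pooled mice was not given in the sources used here, so p-values measure the spread between these libraries.

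MHC class II molecules are pairs of an α and a β chain that display peptides from endosomes to CD4 T cells. They assemble on the invariant chain Cd74, a fragment of which fills the groove until H2-DM exchanges it for peptide, and H2-O holds H2-DM back. Ciita is a coactivator of class II transcription, and it acts through an assembly of RFX, CREB and NF-Y factors on the X and Y boxes of the promoters. Dendritic cells, B cells and macrophages are the known users of the pathway in bone marrow, and HSCs also carry class II at a lower level.

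Of the members, 8 lie within 224.3 kb of mouse chromosome 17 (GRCm38 with GENCODE M21 gene models), and RefSeq promoter windows were found for 7 of them, with 2 start sites for H2-DMa. The windows run from 250 bases before to 50 bases after the start site. The Y box pattern TGATTGG (the inverted CCAAT bound by NF-Y) was searched on both strands and was present in 6 of the 8 member windows and in 2568 of all 32851 windows (7.82%). The pattern CNNGNNAC, a loose form of the RFX site in the X box, was common, in 27798 of all windows (84.6%) and all 8 member windows. CNNGNNAC followed by TGATTGG at 31 to 34 bases from start to start was present in 5 of the 8 member windows and in 47 of all windows (0.143%). That spacing was read off the members themselves, so it describes them and tests nothing. The patterns did not overlap in any member window. The 6 stretches below are shown because they hold TGATTGG, with CNNGNNAC at that spacing before it in 5 of them. Each is 60 bases long on the strand of its gene (GRCm38.p6), with the matches in capitals. They lie at chr17:34092289-34092348 on the + strand (H2-Oa), chr17:34145112-34145171 on + (H2-DMb2), chr17:34153083-34153142 on + (H2-DMb1), chr17:34238801-34238860 on + (H2-Ob), chr17:34287859-34287918 on - (H2-Aa) and chr17:34305761-34305820 on + (H2-Eb1).
H2-Oa: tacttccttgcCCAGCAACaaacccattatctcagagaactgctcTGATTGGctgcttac
H2-DMb2: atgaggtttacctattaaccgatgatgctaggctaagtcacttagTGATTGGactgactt
H2-DMb1: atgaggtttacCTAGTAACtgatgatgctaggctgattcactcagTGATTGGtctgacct
H2-Ob: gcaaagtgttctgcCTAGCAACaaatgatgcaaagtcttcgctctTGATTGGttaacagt
H2-Aa: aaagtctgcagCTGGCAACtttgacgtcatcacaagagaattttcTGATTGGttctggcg
H2-Eb1: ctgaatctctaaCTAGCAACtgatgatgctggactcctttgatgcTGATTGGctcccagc

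TGATTGG began 45 bases (H2-Oa), 50 bases (H2-Aa), 59 bases (H2-Ob), 61 bases (H2-Eb1), 63 bases (H2-DMb1) and 92 bases (H2-DMb2) before the start site. The near-identical genes H2-DMb1 and H2-DMb2 differed at 7 of the 60 positions of these stretches (G15T, T20C, G35A, T37G, C43T, T53A and C59T, counted from 1 at the first base, H2-DMb1 first). G15T falls in the capitals of H2-DMb1 and is why CNNGNNAC is not marked in H2-DMb2. Neither H2-DMa window held TGATTGG. H2-Ab1, Cd74 and Ciita were not matched in the promoter table.

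**Figure D1:**
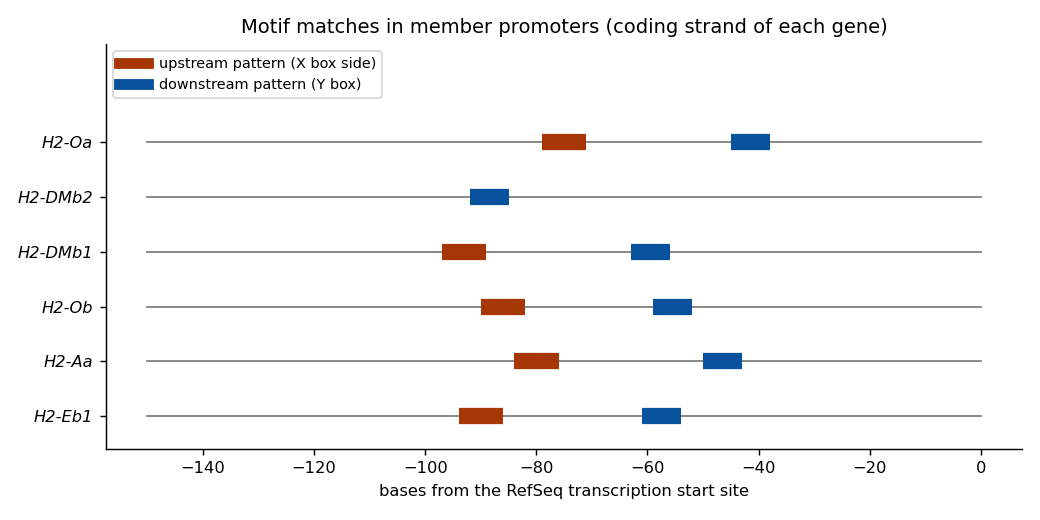
Positions of the 2 patterns in the 6 member windows that held TGATTGG, in bases from the RefSeq start site at 0, on the strand of each gene. Red blocks mark the upstream pattern and blue blocks the downstream pattern, which lie 31 to 34 bases apart in 5 genes, while for H2-DMb2 only the downstream one, at -92, is drawn because its window did not hold the upstream pattern at that spacing.

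Library totals ran from 24261371 to 39934554 counts, with a median of 34817620.5. Levels are given as CPM, the share of a library's counts scaled by TMM over all 24 libraries, and as CPM per kb of exon where genes are compared with each other. Exon length here is the union of all annotated exons of a gene, not the length of the RNA present. Orders and ratios between genes per kb depend on that choice. Zfp36 was at 20.5 to 38.4 CPM in WT MPP3 and 81.6 to 124 CPM in TTPΔARE MPP3 cells, and at 32.4 to 69.2 CPM in Y-WT and 85.3 to 105 CPM in Y-TTPΔARE HSCs, with no overlap at either place. The libraries followed their cell labels: 9 genes of granulocyte-monocyte primed progenitors summed to 2460 to 3930 CPM in WT MPP3 and 424 to 592 CPM in Y-WT HSCs. Much of that was Cd34 (1430 to 1710 and 266 to 383 CPM) and Flt3 (440 to 557 and 38.6 to 62 CPM), which encode CD34 and Flk2 of the HSC sort. Outside that sort, Mpo was at 264 to 1180 and 0.996 to 5.57 CPM, while Prtn3 overlapped (95 to 174 and 103 to 126 CPM). One TTPΔARE MPP3 library, replicate 4, stood apart with the lowest TMM factor of the series, 0.7306, against 0.8912 to 0.9679 in the other TTPΔARE MPP3 libraries. The study's account of MPP3 cells used fewer TTPΔARE MPP3 libraries than the 4 analysed here, without naming the one left out. Immunoglobulin RNA was uneven, and Ighm, the μ heavy chain, took 3.38% of the counts of WT MPP3 replicate 1 and 2.56% of those of Y-WT HSC replicate 3.

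In WT cells the pathway was present but unequal. Per kb, Cd74 was the highest member in young HSCs at 269.9 ± 41.6 CPM per kb (SD, n = 4) and Ciita the lowest at 1.59 ± 0.21, with H2-Ab1 at 67.3 ± 10.9, and H2-Aa, H2-DMb1, H2-DMa and H2-Eb1 between 38.6 and 42.5, where neighbours lay closer than their SDs. H2-Oa (12.6), H2-DMb2 (3.74) and H2-Ob (3.10) came next, and the last pair did not differ beyond their SDs. In WT MPP3 cells the order was different: H2-DMa followed H2-Ab1 at 56.4 ± 3.9 CPM per kb, H2-Aa stood at 24.3 ± 3.8 below H2-DMb1 at 35.8 ± 2.3, and H2-Ob, the β chain of H2-O, stood at 19.5 ± 3.1 beside H2-Oa at 17.9 ± 2.6. H2-Ob lay at 9.64, 20.4, 22.9 and 13.7 CPM in the Y-WT HSC libraries and at 87.9, 102, 127 and 102 CPM in the WT MPP3 libraries, a ratio of means of 6.28 with no overlap. Ciita was lower in WT MPP3 than in Y-WT HSCs at 0.629 of the HSC mean, and H2-Aa at 0.572, while H2-DMa at 1.39 and H2-Oa at 1.43 were higher, each without overlap. Cd74 (0.802), H2-Ab1 (1.10), H2-Eb1 (0.581), H2-DMb1 (0.857) and H2-DMb2 (1.09) overlapped between the 2 cell types. The MPP3 libraries take part in the rule that chose the genes, so these ratios carry no test. The share of all genes without overlap between these cell types was not worked out. Nothing is therefore read from which members overlapped. HSC and MPP3 libraries also carry separate runs of sample numbers in their titles, from which cell type cannot be told apart.

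In MPP3 cells the members together took 0.0859 to 0.118% of all counts in WT libraries and 0.558 to 0.933% in TTPΔARE libraries. Each of the 10 was higher in every TTPΔARE MPP3 library than in every WT MPP3 library, which was true of 5.6% of all genes tested in this direction, and all 10 were past the study's limits for a called gene (edgeR adjusted p under 0.05, a fold over 1.2 and an average log2 CPM over 1.5), as were 2.33% of all genes. Without WT MPP3 replicate 1 the count was 8 of 10, with H2-DMa and H2-Ob lost (1.77% of all genes), and without TTPΔARE MPP3 replicate 4 it was 10 (2.41%). The genes were chosen for this contrast and nothing is read from those counts. In bulk libraries, a larger share of cells that carry class II and more class II RNA per cell cannot be told apart.

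Ciita was at 9.9, 8.52, 8.5 and 11.2 CPM in WT MPP3 libraries and at 90.7, 55.1, 77.4 and 83.4 CPM in TTPΔARE MPP3 libraries. The fitted log2 difference was 2.96 ± 0.18 (SE), and 2.97 without TTPΔARE MPP3 replicate 4. Ciita lies at chr16:10480059-10528418 on the + strand, and 3.45% of its exon bases are shared with Dexi on the other strand. Every TTPΔARE library thus lay well above every WT library.

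The classical chains, with Cd74, showed the largest differences. H2-Aa, the α chain of I-A, was at 102, 87.1, 74.3 and 106 CPM in WT MPP3 and at 1260, 774, 941 and 1910 CPM in TTPΔARE MPP3 libraries. H2-Ab1, its β chain, was at 186, 184, 177 and 217 CPM in WT MPP3 and at 2420, 1440, 1800 and 3190 CPM in TTPΔARE MPP3 libraries. H2-Eb1, the β chain of I-E, was at 47.6, 37, 35 and 54.5 CPM in WT MPP3 and at 812, 522, 610 and 1260 CPM in TTPΔARE MPP3 libraries. All 3 had the same order of TTPΔARE libraries, with replicate 4 highest and replicate 2 lowest. The log2 differences were 3.65 ± 0.24 for H2-Aa, 3.47 ± 0.20 for H2-Ab1 and 4.12 ± 0.26 for H2-Eb1, and 3.44, 3.32 and 3.90 without TTPΔARE replicate 4. The gene of the I-E α chain, listed as the pseudogene H2-Ea-ps, was at 0 to 0.866 CPM over the 8 MPP3 libraries. The values of I-E are thus those of its β chain alone. For the I-A chains, the ratio of H2-Ab1 to H2-Aa per kb was 3.09 ± 0.34 in WT MPP3 and 2.72 ± 0.17 in TTPΔARE MPP3 cells, beside 1.60 ± 0.20 in Y-WT HSCs. Its size rests on exon lengths of 2568 bases for H2-Ab1 and 3798 bases for H2-Aa. Before scaling by length, the Y-WT HSC means were 172.8 and 161.5 CPM. Comparing this ratio between groups does not depend on those lengths. Both promoter patterns printed above were present in H2-Aa and H2-Eb1, at the upper end of these differences, and also in H2-Oa and H2-Ob, at the lower end.

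Cd74, the invariant chain, was at 684, 191, 281 and 298 CPM in WT MPP3 and at 3690, 2460, 2860 and 5130 CPM in TTPΔARE MPP3 libraries, a log2 difference of 3.24 ± 0.36. The high WT value came from replicate 1, the WT MPP3 library with the most Ighm. Without that library the difference was 3.68 ± 0.25, above those of H2-Aa (3.65) and H2-Ab1 (3.41) in the same fit, and without TTPΔARE replicate 4 it was 3.09 ± 0.37. The ratio of Cd74 to the summed classical chains, per kb, was 3.29 in WT MPP3 replicate 1 and 1.00 to 1.57 in the other WT MPP3 libraries. The same ratio was 2.81 in Y-WT HSC replicate 3, the HSC library with the most Ighm, and 1.33 to 1.73 in the other Y-WT HSC libraries. In TTPΔARE MPP3 cells it was 1.28 to 1.42, so Cd74 and the chains kept a narrow ratio there. The part of B-lineage RNA in these values was not tested.

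The peptide editors differed less. H2-DMa, the α chain of H2-DM, was at 184, 208, 204 and 183 CPM in WT MPP3 and at 336, 265, 315 and 545 CPM in TTPΔARE MPP3 libraries. H2-DMb1 was at 59.2, 65.8, 57.2 and 58.6 CPM in WT MPP3 and at 231, 165, 183 and 330 CPM in TTPΔARE MPP3 libraries. H2-DMb2 was at 8.24, 6.53, 8.34 and 5.31 CPM in WT MPP3 and at 47.2, 31.8, 34.8 and 36.7 CPM in TTPΔARE MPP3 libraries. The α chain thus had the smallest difference of the H2-DM genes, and the β chains the larger ones. The log2 differences were 0.84 ± 0.16 for H2-DMa, 1.85 ± 0.16 for H2-DMb1 and 2.39 ± 0.18 for H2-DMb2, and 0.67, 1.69 and 2.45 without TTPΔARE replicate 4. H2-DMb1 and H2-DMb2 share 369 stretches of 50 bases in their exons (22.7% and 21.2% of each), so how reads were split between them is uncertain. H2-DMa shares 10.4% of its exon bases with Brd2 on the other strand, and whether counting used strand was not given in the sources used here. Brd2 itself differed by a log2 of 0.02 ± 0.11 in MPP3 cells.

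The inhibitors differed by amounts close to that of H2-DMa. H2-Oa was at 28.1, 23.9, 28.1 and 20.6 CPM in WT MPP3 and at 49.6, 40.6, 49 and 85.8 CPM in TTPΔARE MPP3 libraries, a log2 difference of 1.10 ± 0.16, or 0.91 without TTPΔARE replicate 4. H2-Oa shares 22.8% of its exon bases with the antisense gene BC051537, and reads of the pair cannot be told apart without strand. H2-Ob was at 87.9, 102, 127 and 102 CPM in WT MPP3 and at 169, 165, 163 and 197 CPM in TTPΔARE MPP3 libraries, a log2 difference of 0.69 ± 0.13. H2-Ob and H2-DMa (0.84 ± 0.16) had the 2 smallest differences of the 10, and without TTPΔARE replicate 4 they stood at 0.68 and 0.67.

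**Figure D2:**
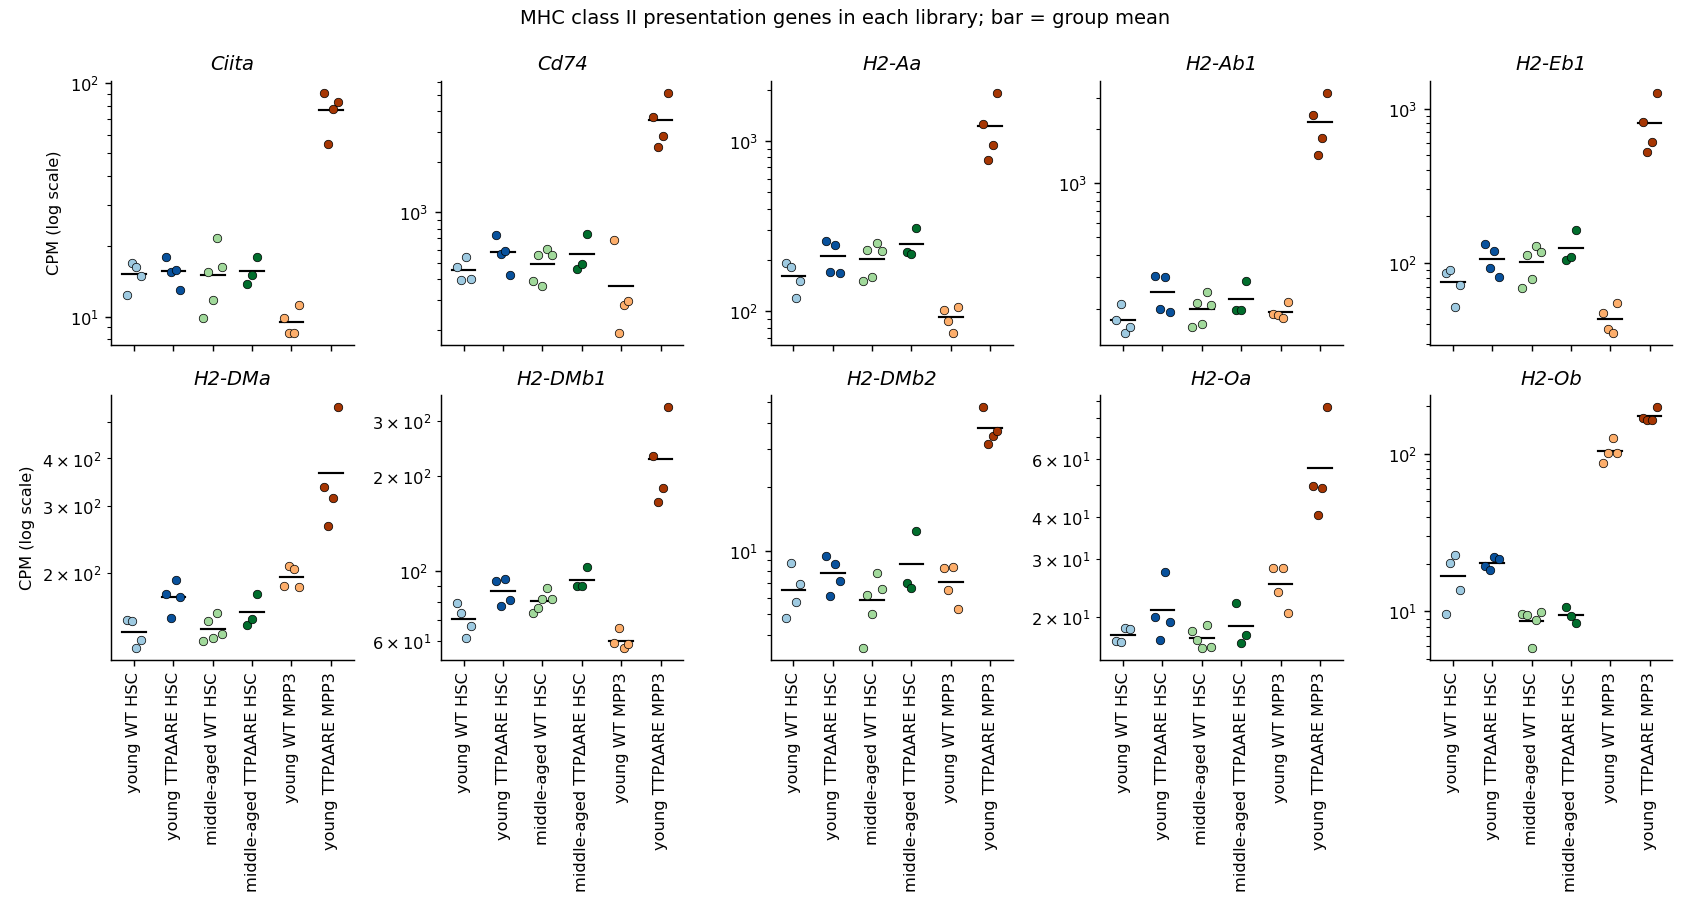
Level of each member in every library, in CPM on a log axis, with 1 point per library and a bar at the group mean. TTPΔARE MPP3 libraries (dark red) lie above every other group for all 10 genes, and WT MPP3 libraries (light orange) lie above the HSC libraries for H2-Ob alone without overlap with any of them.

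Across the 6 groups, TTPΔARE MPP3 was the highest for all 10 members, with no overlap with the group next in order. Below it, the groups followed one another with overlapping ranges for most members. The exceptions were H2-Aa, where WT MPP3 (74.3 to 106 CPM) lay below Y-WT HSCs (120 to 191 CPM), and H2-Ob, where WT MPP3 lay above Y-TTPΔARE HSCs (18.2 to 22.2 CPM). TTPΔARE MPP3 means were 2.11 (H2-DMa) to 8.89 (H2-Ab1) times those of Y-TTPΔARE HSCs. Within the TTPΔARE MPP3 group, replicate 4 was the highest library for 8 of the 10 members and replicate 2 the lowest for 9.

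The balance of H2-DM to H2-O transcripts, per kb and summed over chains, separated the cell types. It was 5.57 ± 0.97 in Y-WT HSCs (SD, n = 4), 5.75 ± 0.58 in Y-TTPΔARE HSCs (n = 4), 6.65 ± 0.55 in M-WT HSCs (n = 5) and 7.16 ± 1.41 in M-TTPΔARE HSCs (n = 3). In MPP3 cells it was 2.60 ± 0.27 in WT (2.24 to 2.88) and 3.60 ± 0.34 in TTPΔARE libraries (3.25 to 3.93), and every MPP3 library lay below every HSC library. The ratio of H2-Ob to H2-Oa was 0.246 ± 0.088 in Y-WT HSCs and 0.132 ± 0.024 in M-WT HSCs, against 1.10 ± 0.20 in WT MPP3 and 0.855 ± 0.190 in TTPΔARE MPP3 cells. The low H2-DM to H2-O ratio of MPP3 cells thus went with more H2-Ob. These ratios use the same values as the choice of genes and are given without a test, and cell type cannot be told apart from the runs of sample numbers.

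**Figure D3:**
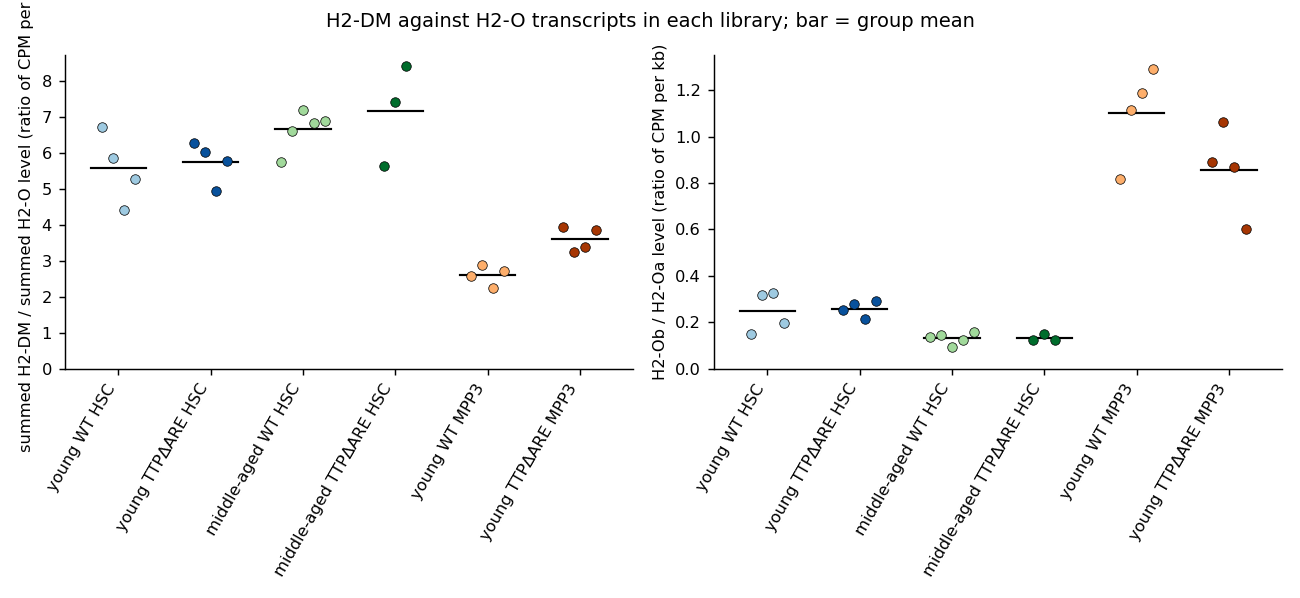
Ratio of summed H2-DM to summed H2-O levels (left) and of H2-Ob to H2-Oa levels (right), each from CPM per kb of exon, with 1 point per library and a bar at the group mean. HSC libraries lie at 4.41 to 8.42 on the left and MPP3 libraries at 2.24 to 3.93.

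Companion genes of the pathway were listed by role under 51 symbols, of which 48 were in the table. The symbols not found, Marchf1, Marchf8 and H2-Ea, are other names of the listed March1, March8 and H2-Ea-ps, which were in it. Of the 48, 46 had enough counts in MPP3 cells to be tested. In TTPΔARE MPP3 cells 13 of these rose and 0 fell (edgeR quasi-likelihood), beside 2.33% of all genes called higher. That share is over genes past the log2 CPM limit, as were 42 of the 46. The lists were written with earlier results of these data known, and these libraries chose the members, so nothing is read from the counts. Without TTPΔARE replicate 4 the count was 14 (2.41% of all genes), and without WT MPP3 replicate 1 it was 13 (1.77% of all genes), with Ctss in place of Icosl. The factors that hold Ciita on promoters were not among those called, 0 of 7, and Rfx5 was at 58.4, 63.4, 56.4 and 57 CPM in WT MPP3 and at 52.9, 57.5, 48 and 44.1 CPM in TTPΔARE MPP3 libraries. The log2 differences were -0.24 ± 0.15 for Rfx5, 0.07 ± 0.12 for Rfxap and 0.19 ± 0.09 for Rfxank, with edgeR adjusted p of 0.564, 0.847 and 0.452.

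Of the 8 genes from interferon γ to Ciita, the receptor chains Ifngr1 (0.79 ± 0.12, edgeR adjusted p = 0.00624) and Ifngr2 (0.67 ± 0.11, 0.00965) rose. Irf1 differed by a log2 of 0.39 ± 0.13 (edgeR adjusted p = 0.219). Of 6 regulators of Ciita in myeloid and B cells, Irf8 and Zbtb46 rose. Irf8, a factor of dendritic cell and monocyte development, was at 23.9, 24.3, 63 and 39.9 CPM in WT MPP3 and at 443, 233, 354 and 449 CPM in TTPΔARE MPP3 libraries, a log2 difference of 3.25 ± 0.34 (edgeR adjusted p = 0.000762). Zbtb46, a factor of conventional dendritic cells, was at 2.43 to 4.44 CPM in WT MPP3 and at 24.2 to 36.9 CPM in TTPΔARE MPP3 libraries (3.15 ± 0.26). Spi1, which encodes PU.1, differed by a log2 of 0.46 ± 0.12 (edgeR adjusted p = 0.0932).

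Of 9 genes that process antigen in endosomes, 4 rose: the thiol reductase Ifi30 by a log2 of 2.64 ± 0.23, the cathepsins Ctsh by 2.14 ± 0.13 and Ctsz by 0.87 ± 0.12, and the protease Lgmn by 1.03 ± 0.17. Ctss, the cathepsin that trims the invariant chain, was at 173, 43.3, 63.6 and 49.2 CPM in WT MPP3 and at 245, 210, 163 and 252 CPM in TTPΔARE MPP3 libraries, with an overlap made by WT replicate 1, and did not pass (1.40 ± 0.38, edgeR adjusted p = 0.13). Of the 6 tested genes of class II traffic and turnover, March1, the ligase that sends surface class II to degradation, rose by a log2 of 3.92 ± 0.43, and Unc93b1, a chaperone of endosomal receptors, by 1.05 ± 0.16. Of 7 tested costimulators and partner receptors, Cd40 (3.28 ± 0.49), Cd86 (1.46 ± 0.21) and Icosl (0.89 ± 0.18) rose. Of the other 3 tested genes of the H2 class II region, 0 were called.

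**Figure D4:**
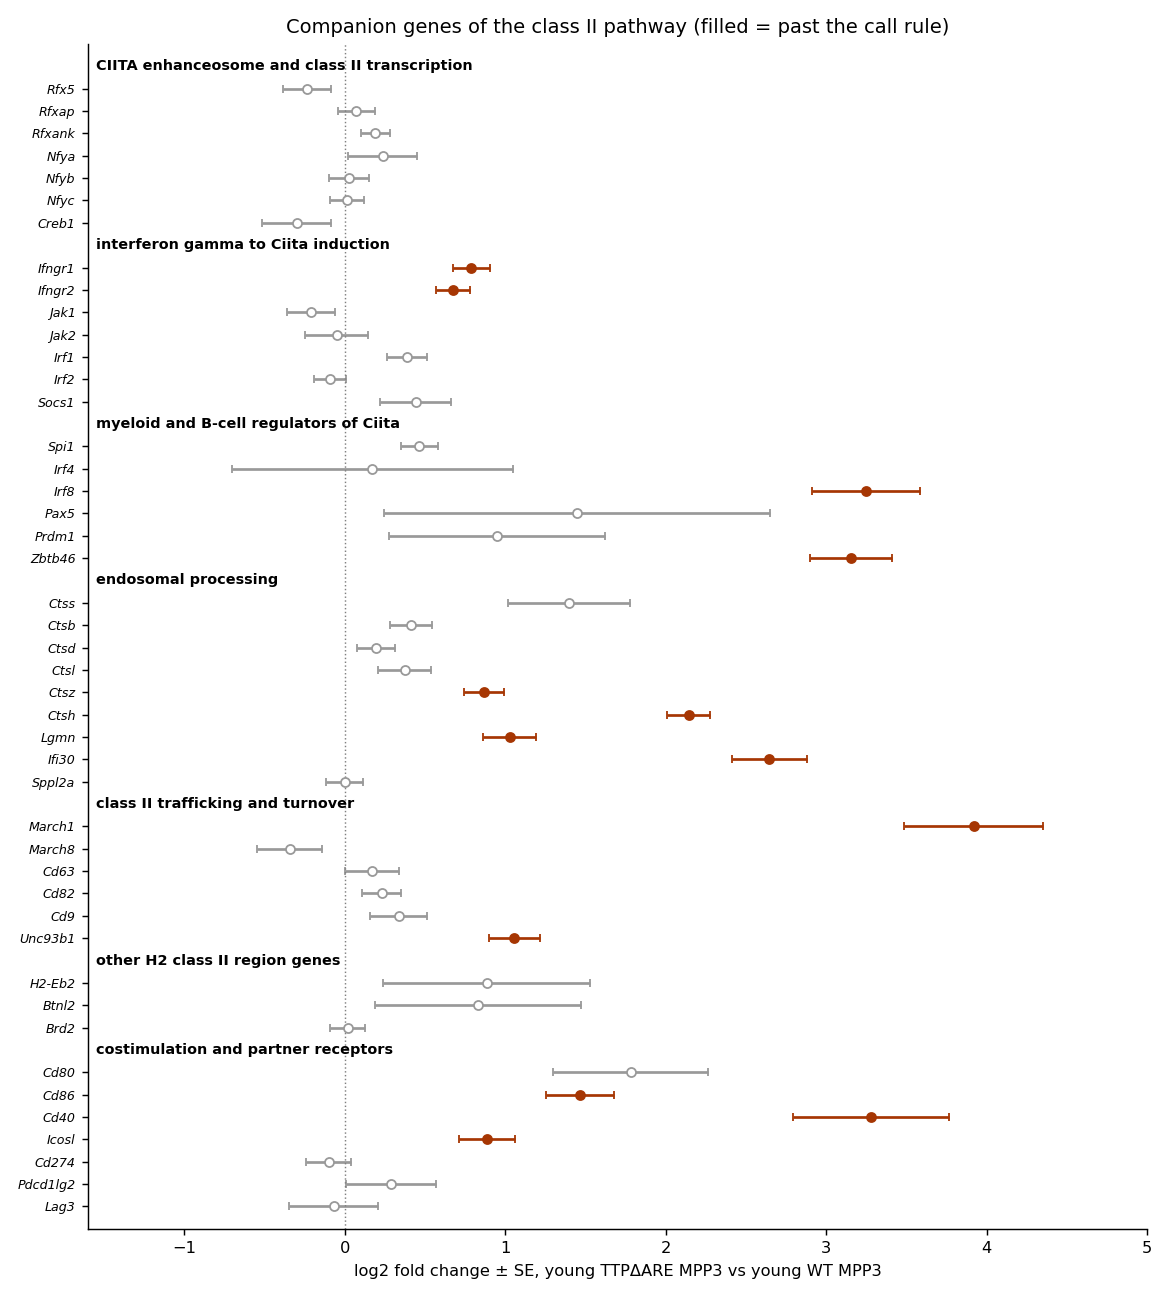
Fitted log2 fold change with its SE for tested companion genes, young TTPΔARE against young WT MPP3 cells, grouped by role. The 13 filled points are the genes past the call rule, and the 7 factors of the Ciita assembly at the top are open and lie between -0.30 and 0.23.

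Markers of other cells moved in the same libraries. Of 10 conventional dendritic cell markers 7 rose in TTPΔARE MPP3 cells (Batf3, Zbtb46, Clec9a, Itgax, Cd209a, Xcr1 and Ccr7). Over all genes 2.33% were called higher, or 2.41% without TTPΔARE replicate 4 and 1.77% without WT replicate 1. These shares stand beside each marker count below. The list of 10 summed to 613 to 758 CPM in WT and 1040 to 1330 CPM in TTPΔARE MPP3 libraries, most of it from Flt3 and Wdfy4, which were not called. Flt3 was at 440 to 557 CPM in WT and 644 to 814 CPM in TTPΔARE MPP3 libraries, and Wdfy4 at 128 to 179 CPM and 162 to 225 CPM. Clec10a, also not called, was at 4.3 to 10.4 CPM in WT and 9.5 to 13.1 CPM in TTPΔARE MPP3 libraries, which overlap. Xcr1, a receptor of cross-presenting dendritic cells, was at 1.55, 0.347, 1.07 and 2.77 CPM in WT MPP3 and at 77.9, 41.1, 66.5 and 96.3 CPM in TTPΔARE MPP3 libraries, and Batf3 was at 0.0578 to 0.726 CPM in WT and 9.08 to 26.5 CPM in TTPΔARE libraries. These defining markers were therefore near 0 in WT MPP3 cells and not in TTPΔARE MPP3 cells. Without TTPΔARE replicate 4 the same 7 were called, and without WT replicate 1 the count was 6. Of 11 monocyte and macrophage markers 4 rose (Fcgr1, Ccr2, Adgre1 and Ms4a6c; Ccr2 and Adgre1 alone when either library was left out), with summed levels of 146 to 415 CPM in WT and 455 to 819 CPM in TTPΔARE MPP3 libraries. Of 13 B cell markers 1 rose, Cd22, with a median log2 of 1.28 over the list. The count was 0 without TTPΔARE replicate 4 and 2, Cd22 and Fcrla, without WT replicate 1, and the list without Ighm summed to 48.3 to 152 CPM in WT and 82.1 to 185 CPM in TTPΔARE MPP3 libraries. Of the 6 plasma cell, 6 tested plasmacytoid dendritic cell, 8 tested T and NK cell and 9 HSC markers 0 were called, and of 9 markers of primed progenitors Elane rose (2.53 ± 0.34). Among the plasmacytoid dendritic cell markers, Siglech was at 0.0518 to 2.01 CPM over the 8 MPP3 libraries, while Ccr9 was at 1.42 to 8.56 CPM in WT and 9.62 to 26 CPM in TTPΔARE libraries (2.13 ± 0.55, edgeR adjusted p = 0.104, called without WT replicate 1) and Bst2 at 53.1 to 70.8 CPM and 77.1 to 117 CPM (0.47 ± 0.12, 0.0852), both without overlap. Such a separation, with TTPΔARE higher, held for 5.6% of all genes. The plasmacytoid dendritic cell list summed to 206 to 321 CPM in WT and 230 to 340 CPM in TTPΔARE MPP3 libraries. The HSC list summed to 2340 to 2990 CPM in WT and 1870 to 2400 CPM in TTPΔARE MPP3 libraries. The part of these other cells in the class II values was not tested.

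The HSC groups took part in the choice of the genes as groups below TTPΔARE MPP3, so tests within HSCs are not fully independent of it. In young HSCs 0 of the 10 members passed the test between Y-TTPΔARE and Y-WT (edgeR quasi-likelihood), where 0.0435% of all genes were called. DESeq2 (2.21% of all genes) and edgeR's likelihood ratio test (1.06%) also called 0 members, and at an unadjusted p under 0.05 the count was 4, H2-DMa, H2-DMb1, H2-Ab1 and H2-Eb1 (10.3% of all genes). All 10 fitted differences were above 0, as were 58.4% of all genes, and their median log2 was 0.26 against 0.03 over all genes. H2-Ab1 was at 174, 211, 146 and 159 CPM in Y-WT and at 305, 199, 299 and 192 CPM in Y-TTPΔARE libraries, which overlap, a log2 fold change of 0.49 ± 0.18 (edgeR adjusted p = 0.555). H2-DMa was at 150, 149, 127 and 133 CPM in Y-WT and at 176, 152, 191 and 173 CPM in Y-TTPΔARE libraries, a log2 fold change of 0.26 ± 0.09 (edgeR adjusted p = 0.513). H2-DMa was the 1 member of 10 whose groups did not overlap, as was true of 8.4% of all genes. Ciita, at 12.4, 17, 16.3 and 15 CPM in Y-WT and 18.1, 15.6, 15.9 and 13 CPM in Y-TTPΔARE HSCs, had a log2 fold change of 0.01 ± 0.15 (edgeR adjusted p = 0.988). The other log2 fold changes ran from 0.20 for H2-Oa to 0.46 for H2-Eb1. Of 47 companions tested 0 were called, with 5 at an unadjusted p under 0.05, and 1, Lgmn, by DESeq2 and by the likelihood ratio test. In the same libraries 9 T and NK cell markers summed to 68.9 to 79.2 CPM in Y-WT and 102 to 188 CPM in Y-TTPΔARE HSCs (0 called). Conventional dendritic cell markers summed to 109 to 149 CPM and 138 to 158 CPM, most of it from Flt3 and Wdfy4. Flt3 was at 38.6 to 62 CPM in Y-WT and 56.3 to 67.9 CPM in Y-TTPΔARE HSCs, and Wdfy4 at 43.1 to 62.8 CPM and 55.4 to 72 CPM. The part of these other cells was not tested.

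In middle-aged HSCs 0 of 10 members passed between M-TTPΔARE and M-WT (edgeR quasi-likelihood, 2.22% of all genes called), and DESeq2 (6.23%) and the likelihood ratio test (2.14%) also called 0. At an unadjusted p under 0.05 the count was 1, H2-DMb1 (19.7% of all genes). H2-DMb1 was at 73.8, 76.6, 81.4, 88.7 and 81.5 CPM in M-WT and at 89.7, 89.4 and 103 CPM in M-TTPΔARE libraries, without overlap (13.8% of all genes), a log2 fold change of 0.18 ± 0.07 (edgeR adjusted p = 0.26). All 10 differences were above 0, where 41.5% of all genes were, with a median log2 of 0.15 against -0.03 over all genes. That direction rested on 1 library: without M-TTPΔARE replicate 3, the highest library for 8 members, 6 of 10 were above 0 and the median was 0.02. The largest value was that of H2-DMb2, 0.54 ± 0.26 (edgeR adjusted p = 0.338). Ciita was at 9.9, 15.5, 11.8, 21.8 and 16.3 CPM in M-WT and at 13.8, 15.1 and 18 CPM in M-TTPΔARE HSCs (0.01 ± 0.21). Of 45 companions tested 1 rose, Zbtb46 (0.48 ± 0.10, edgeR adjusted p = 0.0437), and 1 fell, Lgmn (-1.14 ± 0.18, 0.0111). The count of calls was 0 without M-TTPΔARE replicate 2 or 3, and 1 without any other single library.

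Whether the difference between genotypes itself differed with age was tested in 1 fit over the 16 HSC libraries (edgeR quasi-likelihood), where 0.0439% of all genes were called and 0 of 10 members, with log2 values from -0.38 ± 0.27 for H2-Ab1 to 0.28 ± 0.37 for H2-DMb2 and edgeR adjusted p from 0.429 to 0.958. At an unadjusted p under 0.05 it gave 0 as well (15.1% of all genes), as did DESeq2 (1.17%) and the likelihood ratio test (0.198%). A p that misses the threshold does not show that the ages were alike.

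**Figure D5:**
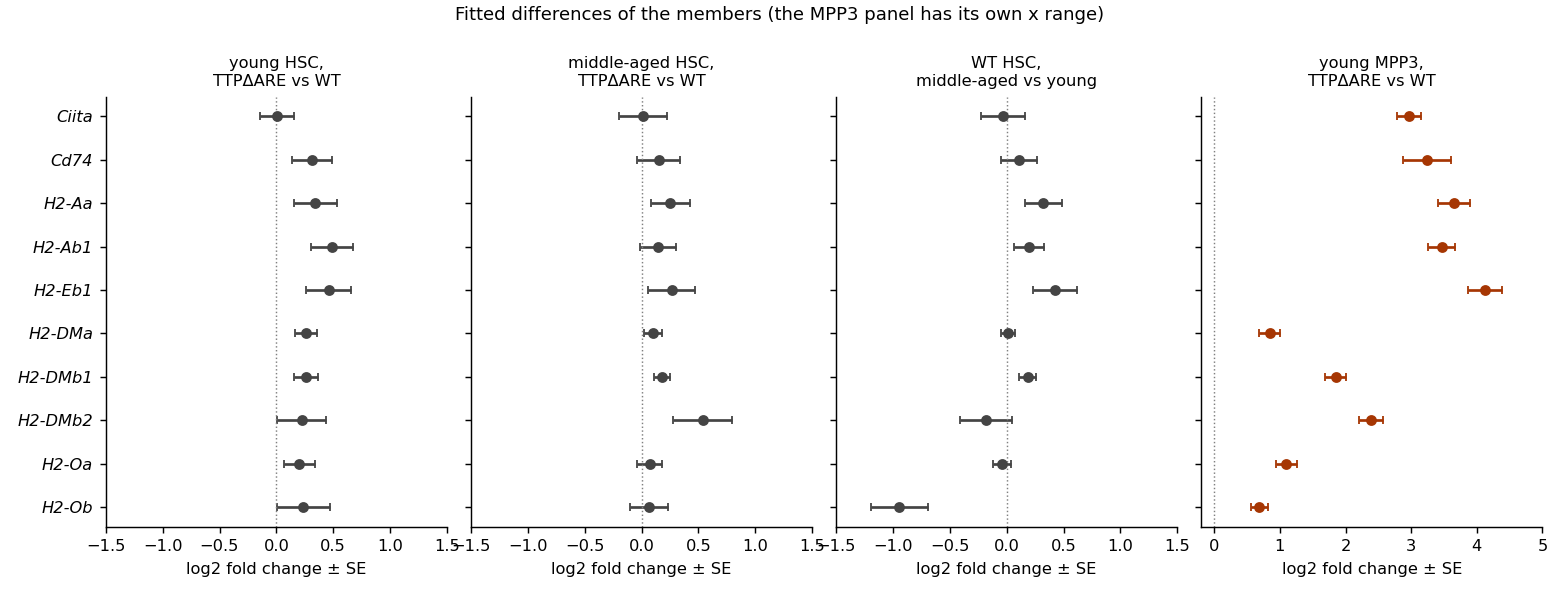
Fitted log2 fold change with its SE for each member in 4 comparisons. The young MPP3 panel, with its own x range, shows 0.69 to 4.12 and carried the choice of the genes, and the 3 HSC panels stay between -0.94 and 0.54, with H2-Ob at -0.94 in middle-aged against young WT HSCs the farthest from 0.

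Between middle-aged and young WT HSCs 1 of 10 members passed, where 19.7% of all genes were called. H2-Ob was at 9.64, 20.4, 22.9 and 13.7 CPM in Y-WT and at 9.56, 9.47, 5.89, 8.82 and 9.89 CPM in M-WT libraries, a log2 fold change of -0.94 ± 0.25 (edgeR adjusted p = 0.0246). Its groups overlapped through Y-WT replicate 1, and the adjusted p rose to 0.077 without Y-WT replicate 2, 0.0674 without Y-WT replicate 3, 0.0503 without M-WT replicate 2 and 0.0501 without M-WT replicate 3. M-WT and Y-WT libraries carry separate runs of sample numbers in their titles. The labels do not say what these runs stand for, and age cannot be told apart from them. H2-Eb1 (0.42 ± 0.20, edgeR adjusted p = 0.138), H2-Aa (0.32 ± 0.17, 0.177) and H2-DMb1 (0.18 ± 0.07, 0.0911) did not pass. Of 47 companions 10 were called, with Rfx5 (0.29 ± 0.08) and Cd63 (0.37 ± 0.06) higher in middle age, and Irf8 (-0.92 ± 0.18), Zbtb46 (-0.88 ± 0.22), Spi1 (-0.28 ± 0.06), Ctss (edgeR adjusted p = 0.0249), Ctsl (-1.21 ± 0.29), Lgmn (-2.37 ± 0.34), Cd86 (-1.24 ± 0.19) and Icosl (-0.60 ± 0.18) lower. Monocyte and macrophage markers summed to 75.7 to 142 CPM in Y-WT and 32.4 to 51.3 CPM in M-WT HSCs, with 3 of 11 called lower. T and NK cell markers summed to 68.9 to 79.2 CPM and 42.2 to 51.3 CPM, but moved in both directions. Of 8 tested, Cd3e (-3.31 ± 0.57), Cd3g, Trac, Cd4 and Nkg7 were called lower and Klrb1c (1.97 ± 0.14) higher. The part of these other cells was not tested.

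Over the 16 HSC libraries most members rose and fell together, as a description of libraries that share group, age and run of sample numbers. Pearson's r of a member with the mean log2 CPM of the other 9 was 0.93 for H2-Ab1, 0.84 for H2-DMa, 0.83 for H2-DMb2 and 0.74 for both Cd74 and H2-Aa, but 0.44 for H2-Oa and 0.08 for H2-Ob. The H2-O genes were the members least like the rest. Among the non-members with the highest r with the mean of the 10, out of 13226 genes, were Tgtp2 (0.82), Tap1 (0.82), Abraxas2 (0.80), Hmgxb4 (0.79), Kansl2 (0.78), Car1 (0.77), Tgtp1 (0.77), Hagh (0.77) and Pcgf1 (0.76). Tap1 is a subunit of the peptide pump of MHC class I, and Tgtp1 and Tgtp2 are near-identical interferon-induced GTPases whose reads may be split between them. Over the 8 MPP3 libraries, which fall into 2 separate groups by genotype so that no r is given, the 10 genes most like the members were Psap, Naaa, Ppt1, Clec9a, Ctsh, Id2, Cyp27a1, Cxcr3, Klf2 and St3gal5.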

How the data were processed

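mRNA-seq libraries of sorted HSCs and MPP3 cells were made from bone marrow. The counts deposited by the authors are whole numbers of reads per gene, 1 table per library; per the labels and the study's methods, reads were trimmed with cutadapt, aligned to mm10 with STAR and counted per gene with featureCounts on GENCODE M22. The use of strand, the handling of reads with several matches and the versions of STAR and featureCounts were not given in the sources used here. The methods and labels name different library kits. Genes were tested with edgeR 4.0.16 in R 4.3.3 (limma 3.58.1): TMM factors, a filter on low counts (filterByExpr, at least 10 counts and 15 in total), a quasi-likelihood fit within the groups compared and Benjamini-Hochberg adjustment over all genes tested. Called genes had adjusted p below 0.05, a change above 1.2-fold (not asked of the interaction) and an average log2 CPM above 1.5, and shares of all genes called are over genes past that log2 CPM limit. The SE is that of the log2 fold change, from the F statistic. Depth was 24261371 to 39934554 counts per library, and the lowest value of a member was 3.49 CPM of H2-DMb2.

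Exon lengths and positions came from GENCODE M21 (GRCm38) and promoters from RefSeq (GRCm38.p6). Figures were drawn with Python 3.11.15 and matplotlib 3.10.9. The code of the fits was run on simulated counts to check that it works, and no result here rests on that run. Alternatives were DESeq2 1.42.0, the likelihood ratio test, other scalings and filters, a fold over 2, a replicate block, H2-DMb1 and H2-DMb2 summed, immunoglobulin and receptor segment genes left out, all 24 libraries in 1 fit, and each library left out. The genes, companion lists, marker lists and tests were chosen with earlier results of these data known. The genes named are the 10 members, each companion called in a comparison, a fixed set of regulators and processing genes, markers (the first 4 of each list and those called; here only those the values turn on) and the 10 non-members most like the members. No pair of libraries held identical counts. One gene of the named set is not reported here.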

Additional observations from a re-analysis of the deposited data

Results flagged for a closer look

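Over 50 groups of 4 or 5 libraries, 1 per member and group, 2 held a library far from the others of its group, where chance gives about 1 in 20, or 2.5. Both were H2-Ob. In M-WT HSCs, replicate 3 had 5.89 CPM of H2-Ob and the other 4 libraries 8.82 to 9.89 CPM, and without it the fall of H2-Ob between young and middle-aged WT HSCs no longer passed (edgeR adjusted p = 0.0501). In TTPΔARE MPP3 cells, replicate 4 had 197 CPM of H2-Ob and the other 3 libraries 163 to 169 CPM. Replicate 4 is the library with the lowest TMM factor, and the log2 difference of H2-Ob between genotypes was 0.68 without it and 0.69 with it.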

How the results depend on the processing

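The count of members called in young HSCs, in middle-aged HSCs and for the interaction stayed at 0 under each of 20, 20 and 27 alternatives. For age in WT HSCs the count of 1 became 0 at a fold over 2, 0 with the replicate block and 2 without a filter on low counts, and ran from 0 to 2 with each library left out. With the replicate block H2-Ob was at -0.94 (edgeR adjusted p = 0.0851), and over all its alternatives the adjusted p ran from 0.00205 to 0.0851. Most same-numbered libraries did not deviate together (correlations of -0.14 to 0.281). Replicate 1 in young HSCs (0.281) and replicate 4 for age in WT HSCs (0.122) were each best matched by their own number. No source used here says that the numbers pair samples. Companions called in young HSCs went from 0 to 1 with all 24 libraries, DESeq2, the likelihood ratio test and no filter, and stayed at 0 with each library left out. Companions called in middle-aged HSCs went from 2 to 0 with all 24 libraries, 4 by DESeq2, 1 by the likelihood ratio test, 1 at a fold over 2 and 1 with the replicate block, and to 0 to 1 with each library left out. Companions called in MPP3 cells ran from 9 (a fold over 2) to 18 (DESeq2), with 13 as reported. The median log2 difference of the members in MPP3 cells was 2.96 with H2-DMb1 and H2-DMb2 summed, against 2.67, and 2.52 to 2.75 with each library left out. With library totals or upper quartile factors the median over all genes moved from 0.06 to -0.02 or -0.03 for age and from -0.11 to 0.01 for the interaction.

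Values that changed sign were small. The log2 fold change of Ciita in young HSCs was -0.0476 with library totals, -0.0388 with upper quartile factors and -0.0418 to 0.156 with each library left out. For the interaction it was 0.00749 with all 24 libraries, 0.0167 with DESeq2, 0.0795 with library totals, 0.0285 with the replicate block, 0.0172 with RLE factors, 0.0853 with upper quartile factors and -0.237 to 0.0998 with each library left out. For age, Ciita was at 0.0645 and H2-Oa at 0.0503 without a filter, and with each library left out Ciita ran from -0.198 to 0.0788 and H2-Oa from -0.072 to 0.00337. H2-DMa for age was -0.00625 with DESeq2, -0.0696 with library totals, -0.00598 with RLE factors, -0.0749 with upper quartile factors and -0.0238 to 0.0733 with each library left out. For the interaction with each library left out, H2-Aa ran from -0.393 to 0.0363 and H2-DMb2 from -0.159 to 0.452. In middle-aged HSCs with each library left out, Cd74 ran from -0.13 to 0.285, Ciita from -0.129 to 0.173, H2-Ab1 from -0.09 to 0.238, H2-DMa from -0.0145 to 0.158, H2-Oa from -0.0566 to 0.15 and H2-Ob from -0.0516 to 0.121. The cause was not tested.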
